A study of Homo sapiens with 30 samples.

Results

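The response of HepG2 cells to 24 h of sorafenib was followed in cells that carried a mimic of miR-222-5p (M222). The 6 libraries of this experiment, M222_sorafenib and M222_DMSO with 3 replicates each, were taken by their labels out of 30 libraries of the series. All 6 cultures received the mimic; 3 then received sorafenib at 10 µM and 3 its solvent dimethyl sulfoxide (DMSO), so the contrast shows the effect of the drug in the presence of the mimic. The mimic, from a line of locked nucleic acid reagents, was delivered by lipofection 24 h after plating. For comparison, 6 libraries carried a mimic control (MC) and 6 a mimic of miR-512-3p (M512), each with 3 replicates in DMSO and 3 in sorafenib at the same dose and time. HepG2 is 1 established line derived from a liver tumour, called hepatocellular carcinoma in the labels and hepatoblastoma in the text of the study, and it stands in for no other liver cancer.

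Sorafenib inhibits several kinases, among them RAF kinases and the receptors of vascular endothelial growth factor, and is given in advanced hepatocellular carcinoma. Kinases that phosphorylate the initiation factor eIF2 start the integrated stress response, in which bulk translation falls while the transcription factor ATF4 is translated and switches on genes for amino acid supply, redox balance and, under lasting stress, cell death. A miRNA mimic enters the Argonaute complex and represses messenger RNAs with sites complementary to its seed. miR-222-5p is the passenger-arm partner of miR-222-3p, from a locus on the X chromosome.

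The sequence of the mature miRNA is shown because its seed defines the genes that the mimic can address. It lies at chrX:45747073-45747094 (GRCh38.p14, minus strand, RefSeq), and capitals mark the seed, bases 2 to 8:
hsa-miR-222-5p: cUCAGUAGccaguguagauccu
The complement of this seed, CTACTGA, was searched in the 3′ untranslated regions of the annotated transcripts. Among the genes compared, 1172 held it and 9973 did not. Relative to the MC libraries with the same treatment, the median log2 level of genes with the site differed from that of genes without it by -0.22, -0.11 and -0.26 in the DMSO libraries of replicates 1, 2 and 3. In the sorafenib libraries the differences were -0.23, -0.08 and -0.25. The 12 MC and M512 libraries did not carry this mimic. Measured in the same way, except that each MC library was left out of its own reference, they lay between -0.10 and 0.06. Replicates 1 and 3 of both M222 groups were well below that range, while replicate 2 was just below it in DMSO and inside it in sorafenib.

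Total counts were 4474859 to 8756018 in M222_DMSO and 4566937 to 8279825 in M222_sorafenib, lowest in replicate 2 of both groups, and mitochondrial genes held 21.2% to 22.7% of the counts. A level is given here in CPM, the usual per-library scale for counts, after correction of the library totals by TMM, the trimmed mean of M-values. QuantSeq libraries are read near the 3′ end of transcripts, so levels were not divided by length. All 10 markers of hepatocytes were detected in all 6 libraries, with a summed level of 10939 to 13489 CPM in DMSO and 7219.7 to 10088 CPM in sorafenib. The summed level of 5 fibroblast markers was at most 2.45 CPM, that of 4 endothelial markers at most 0.889 CPM and that of 5 leukocyte markers at most 8.21 CPM, with PTPRC, CD3E, DCN, LUM, VWF and TEK at 0 in every library. In such bulk libraries fewer cells and less RNA per cell cannot be told apart.

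Replicate 2 stood apart in both groups, and for this reason the counts of called genes are given with and without it. Despite the lowest depth, it held the most genes with a count, 16243 in DMSO and 16232 in sorafenib, where replicates 1 and 3 held 13698 and 15365 in DMSO and 13252 and 14703 in sorafenib. An axis from DMSO to sorafenib was drawn through 270 genes called in both the MC and the M512 contrast, in the same direction. Its 0 was the DMSO mean and its 1 the sorafenib mean of the MC and M512 libraries. On this axis M222_DMSO replicates 1, 2 and 3 lay at 0.104, 0.282 and 0.0467, and M222_sorafenib replicates 1, 2 and 3 at 1.08, 0.779 and 1.05. The most similar of all 30 libraries was IC_sorafenib replicate 1, an inhibitor control of 6 h, for M222_DMSO replicate 2 (r = 0.973 across 11880 genes), and MC_sorafenib replicate 2 for M222_sorafenib replicate 2 (r = 0.972). MC replicate 2 was displaced in the same way, at 0.165 in DMSO and 0.640 in sorafenib. On the axis, both replicate 2 libraries of M222 thus lay between the groups, nearer to their own. By correlation, M222_sorafenib replicate 2 reached r = 0.956 with an M222_DMSO library and at most 0.953 within its own group. For M222_DMSO replicate 2 the highest r was 0.956 with an M222_sorafenib library and 0.957 within its own group. Whether RNA or reads were mixed was not tested.

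**Figure D1:**
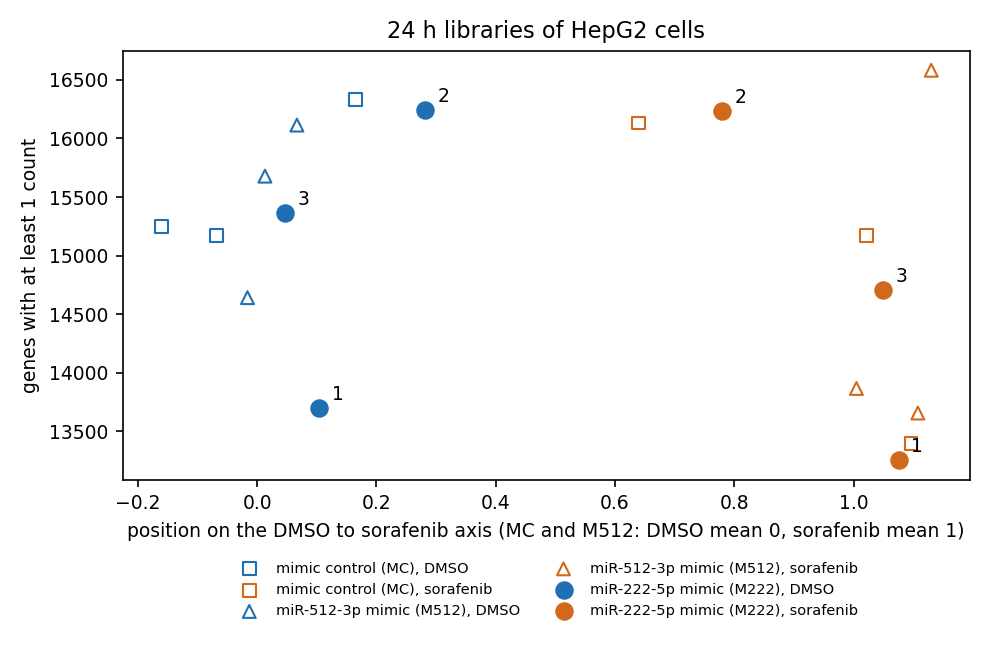
Position of the 18 libraries of 24 h on the DMSO to sorafenib axis (no unit; 0 and 1 are the means of the MC and M512 libraries) against the number of genes with at least 1 count; filled circles are M222 libraries with their replicate number, squares MC and triangles M512, blue DMSO and orange sorafenib. Replicate 2 of M222 lies at 0.282 in DMSO and 0.779 in sorafenib, inward of replicates 1 and 3, with 16243 and 16232 genes.

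Of the gene lists examined, metallothioneins (6 of 9 tested) and the integrated stress response (16 of 26) had the largest shares of genes called higher in sorafenib, with none lower. Called genes of sterol synthesis (4 of 25), fatty acid synthesis (3 of 18) and secreted liver proteins (5 of 28) were all lower. The quasi-likelihood test in edgeR covered 13244 genes. A Benjamini-Hochberg adjusted p under 0.05 was reached by 580, which are referred to as called. They made up 4.38% of the genes tested; 373 were higher in sorafenib (2.82%) and 207 lower (1.56%). A log2 fold change above 1 was seen in 286 called genes and one below -1 in 143. Protein-coding genes supplied 533 of the calls (350 higher, 183 lower, of 11214 tested) and long non-coding RNAs 25 (12 and 13, of 1178). Of the 580 genes, 578 had no overlap between the 3 sorafenib and the 3 DMSO libraries, against 26.7% of all genes tested. The calls rest on these same libraries, so the lack of overlap is no separate evidence for them. When libraries were scaled by total counts, the median log2 fold change of all genes moved from -0.03 to -0.14, and 300 genes were called higher and 326 lower. Directions below are on the TMM scale.

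Without replicate 2, 700 of 14009 genes were called (5.00%), 446 higher (3.18%) and 254 lower (1.81%). Of the 580 genes, 486 (83.8%) stayed called, all in the same direction, and all 580 kept their sign. The log2 fold change was larger in size in 562 of them (96.9%), with a median size of 1.24 with replicate 2 and 1.49 without it, while the median standard error (SE) went from 0.29 to 0.35. For the 700 genes, which were chosen by replicates 1 and 3, M222_DMSO replicate 2 lay a median of 23.8% of the way from the DMSO to the sorafenib mean of those replicates, and M222_sorafenib replicate 2 65.7%. The difference of same-numbered libraries in the 195 higher genes of the axis had a median of 1.64, 0.89 and 1.68 on the log2 scale for replicates 1, 2 and 3. The axis genes were chosen by their MC and M512 effects, and replicate 2 gave the smallest difference there too. The choice was not fully apart from M222, whose libraries shared the low-count filter and the estimate of spread. When each of the 6 libraries was left out in turn, 149 genes (130 higher, 19 lower) were called every time. The total called was 204 without M222_DMSO replicate 3, 307 without M222_DMSO replicate 1, 221 without M222_sorafenib replicate 1 and 267 without M222_sorafenib replicate 3.

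**Figure D2:**
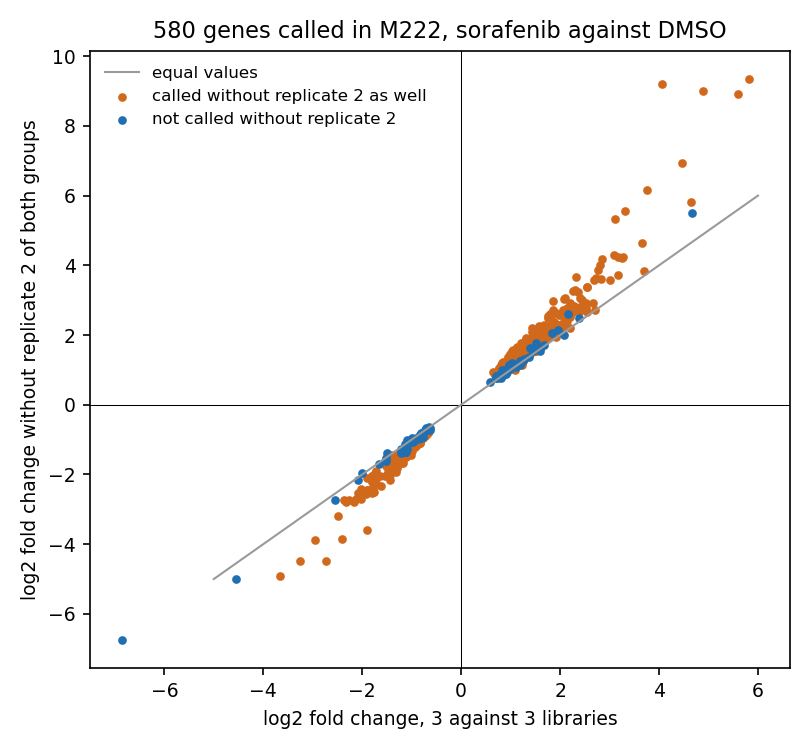
Log2 fold change (sorafenib against DMSO) of the 580 called genes, from 3 against 3 libraries on the x axis and without replicate 2 of both groups on the y axis; orange genes were called in both, blue genes only with replicate 2, and the grey line marks equal values. All 580 keep their sign and 562 lie farther from 0 without replicate 2.

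Metallothioneins, small cysteine-rich proteins that bind zinc and copper, formed the group with the highest median. Of 9 tested members of a list of 10, 6 rose and none fell, with a median log2 fold change of 2.52 where that of all genes was -0.03. Values of replicates 1, 2 and 3 are given in this order throughout. MT2A (ENSG00000125148, GRCh38 chromosome 16, 56608584 to 56609497) was at 825, 2899.7 and 1209 CPM in DMSO and at 8541, 6614 and 10125 CPM in sorafenib. All 3 sorafenib libraries were above all 3 DMSO libraries, while replicate 2 had the highest DMSO and the lowest sorafenib level. The log2 fold change of MT2A was 2.36 (SE 0.36, edgeR adjusted p = 0.000535), and 3.24 without replicate 2 (edgeR adjusted p = 8.21e-06). MT1G went from 381, 1061 and 456 CPM to 3642, 2704 and 4793 CPM (log2 fold change 2.55, SE 0.34, edgeR adjusted p = 0.000204). MT1X went from 46.1, 187 and 73.7 CPM to 653, 556 and 805 CPM (log2 fold change 2.72, SE 0.38, edgeR adjusted p = 0.000252). MT1E, MT1F and MT1M rose as well, with log2 fold changes of 2.28, 1.97 and 2.86. Summed over the list, metallothioneins held 0.186%, 0.571% and 0.254% of the scaled counts in DMSO and 1.73%, 1.41% and 2.11% in sorafenib. Members of this family are close in sequence, and how reads shared by them were counted is not given in the sources used here.

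The 3 tested members that were not called with all libraries, MT1A, MT1B and MT1H, were called without replicate 2, so that the count became 9 of 9. MT1B had 0, 155 and 0 reads in DMSO and 1081, 357 and 1180 in sorafenib. Both groups were thus fully apart, yet the edgeR adjusted p was 0.0522 with replicate 2 and 0.000188 without it. Against the 3 counts per library that a count of 0 allows, the mean of sorafenib replicates 1 and 3 was at least 401-fold higher. MT1H had 0, 12 and 0 reads in DMSO and 28, 10 and 48 in sorafenib, with overlapping groups, and was at least 13.9-fold higher by the same measure. The median of the list without replicate 2 was 3.37, also with MT1B and MT1H at their lower bounds.

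Among 7 genes of zinc handling, 1 was called: SLC30A1, the zinc exporter of the plasma membrane, rose from 37.4, 31.8 and 21.6 CPM to 79.3, 81.6 and 77.8 CPM (log2 fold change 1.39, SE 0.29, edgeR adjusted p = 0.0056). Its replicate 2 lay with the others. The share called among all genes tested was 4.38%. MTF1, the zinc-sensing factor that drives metallothionein genes, was at 18.5, 28.7 and 23.5 CPM in DMSO and at 39.8, 23.9 and 28.5 CPM in sorafenib (log2 fold change 0.39, edgeR adjusted p = 0.498).

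MTF1 binds metal response elements, whose core was searched here as TGCACNC and TGCGCNC on both strands. RefSeq promoter windows, 250 bases before to 50 after the start of a gene, were held for 4 of the 10 metallothioneins, and all 4 had a match, as did 29.3% of all 27305 windows. Matches numbered 8 in MT2A, 8 in MT1H, 4 in MT1X and 3 in MT1B, and 3 or more were found in 2.27% of all windows. The 250 bases upstream of MT2A (chr16:56608334-56608583) and MT1X (chr16:56682220-56682469), both on the plus strand of GRCh38.p14, are printed because these are the called members with a window, and capitals mark the matches:
MT2A: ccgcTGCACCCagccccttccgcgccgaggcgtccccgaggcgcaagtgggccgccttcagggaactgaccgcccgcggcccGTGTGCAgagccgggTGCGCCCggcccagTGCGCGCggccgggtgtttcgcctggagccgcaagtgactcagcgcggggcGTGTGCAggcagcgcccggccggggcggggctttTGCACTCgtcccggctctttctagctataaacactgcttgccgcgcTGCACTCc
MT1X: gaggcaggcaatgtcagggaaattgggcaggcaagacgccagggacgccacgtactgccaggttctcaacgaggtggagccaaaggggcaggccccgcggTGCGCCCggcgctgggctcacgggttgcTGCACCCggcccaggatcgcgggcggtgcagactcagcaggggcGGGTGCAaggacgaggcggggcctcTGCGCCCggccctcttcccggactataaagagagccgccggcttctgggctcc
A match describes the letters and is not a measured binding site.

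Genes of the integrated stress response rose together. Of 26 tested members of a list of 28, 16 rose and none fell, all 26 had a positive log2 fold change, and the median was 1.68. Without replicate 2 the count was 17 and the median 2.15. ATF4 itself was at 174, 294 and 219 CPM in DMSO and at 397, 401 and 520.0 CPM in sorafenib (log2 fold change 0.94, SE 0.24, edgeR adjusted p = 0.0217). PPP1R15A, the phosphatase subunit that reverses eIF2 phosphorylation, went from 5.05, 19.1 and 7.32 CPM to 129, 52.2 and 93.5 CPM (log2 fold change 3.18, SE 0.39, edgeR adjusted p = 0.000118). ASNS, asparagine synthetase, went from 13.3, 40.7 and 17.5 CPM to 108, 102 and 203 CPM (log2 fold change 2.55, SE 0.36, edgeR adjusted p = 0.000252). In each of these genes the 2 groups were apart, and replicate 2 was the highest DMSO library.

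The transcription factors ATF3 and DDIT3, the latter also known as CHOP and linked to stress-induced death, rose with log2 fold changes of 2.76 and 2.29. DDIT3 was at 6.74, 23.1 and 8.17 CPM in DMSO and at 63.3, 39.9 and 78 CPM in sorafenib. TRIB3, a pseudokinase that restrains this pathway, rose by 1.79 on the log2 scale, and SESN2, a sensor that curbs mTORC1, by 1.68. GDF15, a secreted stress hormone, went from 356, 427 and 338 CPM to 1832, 904 and 1431 CPM (log2 fold change 1.90, SE 0.30, edgeR adjusted p = 0.000623). VEGFA, which encodes the ligand of a receptor that sorafenib inhibits, went from 18.1, 21.1 and 20.1 CPM to 98.9, 62.4 and 83.8 CPM (log2 fold change 2.05, SE 0.29, edgeR adjusted p = 0.000252). DDIT4, an inhibitor of mTORC1, was called by edgeR without replicate 2 but not with it. It was at 1.47, 37.1 and 10 CPM in DMSO and at 42.8, 41 and 39.5 CPM in sorafenib, and the edgeR adjusted p was 0.134 with replicate 2 and 0.000725 without it. PSAT1, of serine synthesis, was not called with a log2 fold change of 0.56 (edgeR adjusted p = 0.216).

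Amino acid supply moved with this group. Of 21 amino acid transporters and tRNA synthetases, 6 rose and none fell (9 and none without replicate 2), with a median log2 fold change of 0.52. SLC7A11, the cystine importer, went from 3.9, 19.6 and 10.7 CPM to 73.4, 67.6 and 94.5 CPM (log2 fold change 2.84, SE 0.42, edgeR adjusted p = 0.000422). Its partner chain SLC3A2 went from 76, 223 and 106 CPM to 452, 416 and 539 CPM (log2 fold change 1.80, SE 0.29, edgeR adjusted p = 0.000674). The synthetases GARS1, MARS1, SARS1 and TARS1 rose by 1.35, 1.45, 1.12 and 1.37 on the log2 scale. AARS1 did not pass the test (log2 fold change 0.52, edgeR adjusted p = 0.158).

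ATF4 acts at composite elements of CEBP and ATF half-sites, searched as TGATGNAAN on both strands. It was found in 4 of 24 windows of the stress response list and in 9 of 18 of the amino acid supply list, and in 3.67% of all windows. Among genes called, 2 of 14 and 3 of 5 had it, and among those not called or not tested 2 of 10 and 6 of 13. ASNS is shown as a called gene with a match upstream of its start (chr7:97872409-97872658, GRCh38.p14, minus strand; capitals mark the match):
ASNS: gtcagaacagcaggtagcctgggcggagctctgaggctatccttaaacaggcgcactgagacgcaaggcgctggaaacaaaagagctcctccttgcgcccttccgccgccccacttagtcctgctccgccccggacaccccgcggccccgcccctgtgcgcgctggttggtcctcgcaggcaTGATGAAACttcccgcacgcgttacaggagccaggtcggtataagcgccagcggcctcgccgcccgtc

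Genes of the endoplasmic reticulum passed the test in part. Of 21 tested genes of this compartment and its unfolded protein response, 3 rose and none fell, with a median of 0.34. Over all genes tested, 2.82% were called higher. ERN1, the stress sensor IRE1, went from 10.3, 3.56 and 3.23 CPM to 55.6, 26.1 and 33.3 CPM (log2 fold change 2.70, SE 0.44, edgeR adjusted p = 0.000715). HERPUD1, of protein degradation at that membrane, and DNAJC3, an inhibitor of eIF2 kinases, rose by 1.35 and 0.94 on the log2 scale. HSPA5, the main chaperone of the compartment, was at 802, 1133 and 1078 CPM in DMSO and at 1232, 1173 and 1499 CPM in sorafenib, a difference of 0.37 (SE 0.18, edgeR adjusted p = 0.26). XBP1 had a log2 fold change of -0.30 (edgeR adjusted p = 0.401).

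**Figure D3:**
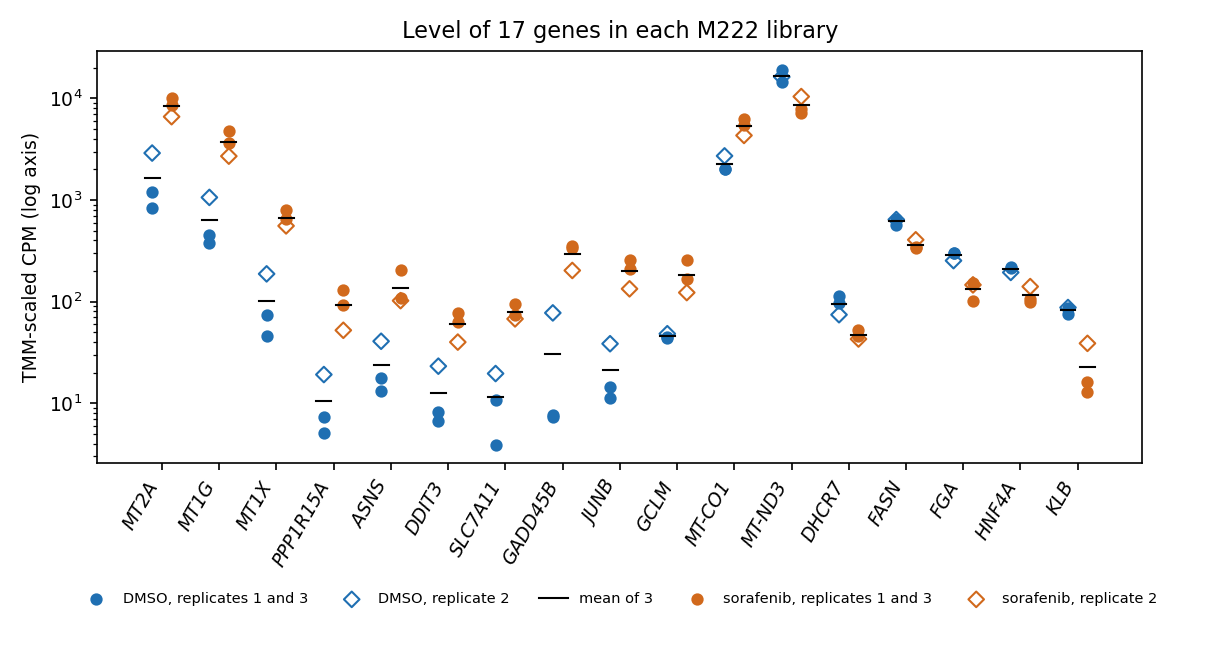
Level of 17 genes in each M222 library in TMM-scaled CPM (log axis); blue is DMSO and orange sorafenib, filled circles are replicates 1 and 3, open diamonds replicate 2, and black lines the mean of 3. The 2 groups do not overlap in any of the 17 genes, and in the metallothioneins and stress genes on the left replicate 2 of DMSO is the highest DMSO point.

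Of 21 genes of ERK feedback and growth response, 3 rose (JUNB, JUN and IER3) and none fell, with a median of 0.28. JUNB, an AP-1 subunit, went from 14.3, 38.5 and 11.2 CPM to 254, 134 and 208 CPM (log2 fold change 3.25, SE 0.48, edgeR adjusted p = 0.000422). JUN, its relative, went from 28.4, 147 and 44.7 CPM to 642, 372 and 509.8 CPM (log2 fold change 2.80, SE 0.45, edgeR adjusted p = 0.000724). DUSP6, an ERK phosphatase whose messenger RNA follows ERK activity, was at 58.2, 42 and 43.9 CPM in DMSO and at 22.7, 45.3 and 40.5 CPM in sorafenib, with overlapping groups (log2 fold change -0.42, SE 0.30, edgeR adjusted p = 0.488).

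Growth arrest and cell death genes were called in part. Of 17 targets of p53 and genes of growth arrest, 3 rose (GADD45A, GADD45B and PLK2) and 1 fell. GADD45B, induced by stress and by TGF-β, had a high DMSO replicate 2, with 7.58, 77.4 and 7.32 CPM in DMSO and 349, 202 and 334 CPM in sorafenib. Its log2 fold change was 3.30 (SE 0.66, edgeR adjusted p = 0.00465), and 5.55 without replicate 2 (edgeR adjusted p = 6.59e-06). TP53I3, a p53 target, fell from 56.4, 58 and 84.1 CPM to 11.9, 32.6 and 31.3 CPM (log2 fold change -1.40, SE 0.32, edgeR adjusted p = 0.0131). The classical targets CDKN1A and MDM2 were not called, with log2 fold changes of 0.29 and -0.34 (edgeR adjusted p = 0.451 and 0.351).

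Among 23 apoptosis regulators, 2 rose and none fell, and both encode death-promoting BH3-only proteins. BBC3 (PUMA) went from 72, 149 and 131 CPM to 397, 232 and 416 CPM (log2 fold change 1.58, SE 0.27, edgeR adjusted p = 0.00137). BCL2L11 (BIM) went from 7.16, 18 and 12.1 CPM to 36.5, 37.9 and 49 CPM (log2 fold change 1.75, SE 0.38, edgeR adjusted p = 0.00836). The median of this list was 0.08, near that of all genes. Of 17 autophagy and lysosome genes, 1 rose, MAP1LC3B, the coat protein of autophagosomes (log2 fold change 0.93, SE 0.22, edgeR adjusted p = 0.0145). Among all genes tested, 2.82% were called higher, and 1 gene in a list of 17 is near that share.

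Antioxidant genes under NRF2 rose in part, and those called centred on glutathione and thioredoxin. Of 20 genes, 5 rose and none fell (4 without replicate 2), with a median of 0.24. GCLM and GCLC, the subunits of the enzyme that limits glutathione synthesis, rose by 2.00 and 1.22 on the log2 scale. TXNRD1, thioredoxin reductase, went from 64.2, 70.9 and 53.4 CPM to 211, 140.2 and 177 CPM (log2 fold change 1.49, SE 0.22, edgeR adjusted p = 0.000427). OSGIN1 and GSR were the others, with log2 fold changes of 1.87 and 0.81. NQO1 and HMOX1, which respond to NRF2 in many cells, had log2 fold changes of -0.17 and -0.08, and their groups overlapped (edgeR adjusted p = 0.662 and 0.933). Of 16 heat shock genes, the co-chaperone BAG3 and ZFAND2A rose by 1.67 and 1.09 on the log2 scale. The share called higher among all genes tested was 2.82%.

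Called genes of lipid synthesis were all lower. Of 25 tested genes of sterol synthesis and uptake, 4 fell and none rose, 23 had a negative log2 fold change, and the median was -0.57. DHCR7, of the last step to cholesterol, went from 97.6, 74.3 and 113 CPM to 52.5, 42.8 and 45.5 CPM (log2 fold change -1.02, SE 0.26, edgeR adjusted p = 0.0216). LSS, lanosterol synthase, was at 22, 25.6 and 23 CPM in DMSO and at 0.624, 16.3 and 3.17 CPM in sorafenib, so that its log2 fold change moved from -1.90 to -3.59 without replicate 2. TM7SF2, a sterol reductase, fell by 1.39 on the log2 scale.

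Of 18 genes of fatty acid and triglyceride synthesis, 3 fell and none rose, with a median of -0.68. FASN, fatty acid synthase, went from 649, 642 and 567 CPM to 341, 406 and 334 CPM (log2 fold change -0.78, SE 0.20, edgeR adjusted p = 0.0252). GPAM, of the first step of triglyceride synthesis, fell by 1.01 and ELOVL6, a chain elongase, by 1.04 on the log2 scale. Without replicate 2 FASN and ELOVL6 missed the threshold (edgeR adjusted p = 0.0646 and 0.121), while SCD and PNPLA3 passed it. None of 13 genes of lipid oxidation was called by edgeR or DESeq2, and 3 had an unadjusted p under 0.05. Of all 13244 genes, edgeR called 4.38%, and 2531 had an unadjusted p under 0.05. With total counts as the scale, 6 sterol and 6 fatty acid genes were called lower.

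Called genes of secreted liver proteins and of hepatocyte transcription factors were lower with 1 exception. Of 28 tested genes of secreted hepatocyte proteins, 5 fell and none rose (7 and none without replicate 2), 26 were negative, and the median was -0.45. FGA, a fibrinogen chain, went from 301, 253 and 300.5 CPM to 153, 146 and 102 CPM (log2 fold change -1.09, SE 0.24, edgeR adjusted p = 0.00904). APOB, the structural protein of low-density lipoprotein, went from 3533, 4327 and 3506 CPM to 1671, 2669.9 and 1376 CPM (log2 fold change -0.99, SE 0.26, edgeR adjusted p = 0.0262). APOM, F5 and F10 were the others that fell. ALB, albumin, was at 4094, 2881 and 3239 CPM in DMSO and at 3098, 3248 and 2674 CPM in sorafenib and did not pass (log2 fold change -0.18, edgeR adjusted p = 0.649).

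Of 15 hepatocyte transcription factors, 4 fell (NR0B2, FOXA3, PROX1 and HNF4A) and 1 rose (FOXA2). HNF4A, a nuclear receptor of liver identity, went from 221, 194 and 213 CPM to 105, 140.5 and 99.5 CPM (log2 fold change -0.86, SE 0.22, edgeR adjusted p = 0.0202). FOXA2, a pioneer factor, went from 95.5, 125 and 117 CPM to 279, 192 and 223 CPM (log2 fold change 1.04, SE 0.20, edgeR adjusted p = 0.00306). Of 9 tested genes of glucose production and sensing, KLB, the co-receptor of FGF21 and FGF19, fell from 75.8, 87.4 and 86.3 CPM to 12.9, 38.8 and 16 CPM (log2 fold change -1.90, SE 0.40, edgeR adjusted p = 0.00608). None of 17 genes of drug metabolism and transport was called by edgeR with all libraries, against 1 by DESeq2 and 5 at an unadjusted p under 0.05. Over all 13244 genes, edgeR called 4.38%, and 2531 had an unadjusted p under 0.05.

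Transcripts of the mitochondrial genome moved in opposite directions. Of 13 messenger RNAs, MT-CO1 rose and MT-ND3, MT-CO2 and MT-CO3 fell, and the summed level of all 13 went from 137362, 139849 and 145329 CPM to 107343, 111036 and 97703 CPM. MT-CO1, a catalytic subunit of cytochrome oxidase, went from 2001, 2719 and 2011 CPM to 6286, 4323 and 5463 CPM (log2 fold change 1.26, SE 0.22, edgeR adjusted p = 0.00128). MT-ND3, of complex I, went from 14557, 16274 and 19272 CPM to 7269.6, 10436 and 7881 CPM (log2 fold change -0.97, SE 0.19, edgeR adjusted p = 0.00357). The large ribosomal RNA MT-RNR2 went from 46444, 61589 and 45780.4 CPM to 105441, 96198 and 106863 CPM (log2 fold change 1.00, SE 0.21, edgeR adjusted p = 0.00586). None of 33 nuclear genes of the respiratory chain was called by edgeR or DESeq2, and 3 had an unadjusted p under 0.05. The numbers over all 13244 genes were 4.38% called by edgeR and 2531 with an unadjusted p under 0.05.

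Of 18 tested mitochondrial transfer and ribosomal RNAs, 3 rose and 4 fell. MT-TP, the proline transfer RNA, had the lowest log2 fold change of the named genes and went from 105, 18.5 and 34.4 CPM to 0.874, 8.47 and 3.83 CPM (log2 fold change -3.66, SE 0.73, edgeR adjusted p = 0.00452). MT-TY, for tyrosine, went from 78.4, 34.2 and 44.2 CPM to 3.37, 11.8 and 1.83 CPM (log2 fold change -3.26, SE 0.64, edgeR adjusted p = 0.00443). MT-TV, for valine, rose by 2.40 on the log2 scale and MT-TF, for phenylalanine, fell by 1.25. These genes are cut from long precursors and abut their neighbours, so that reads counted for a transfer RNA can come from a precursor or an adjacent gene.

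**Figure D4:**
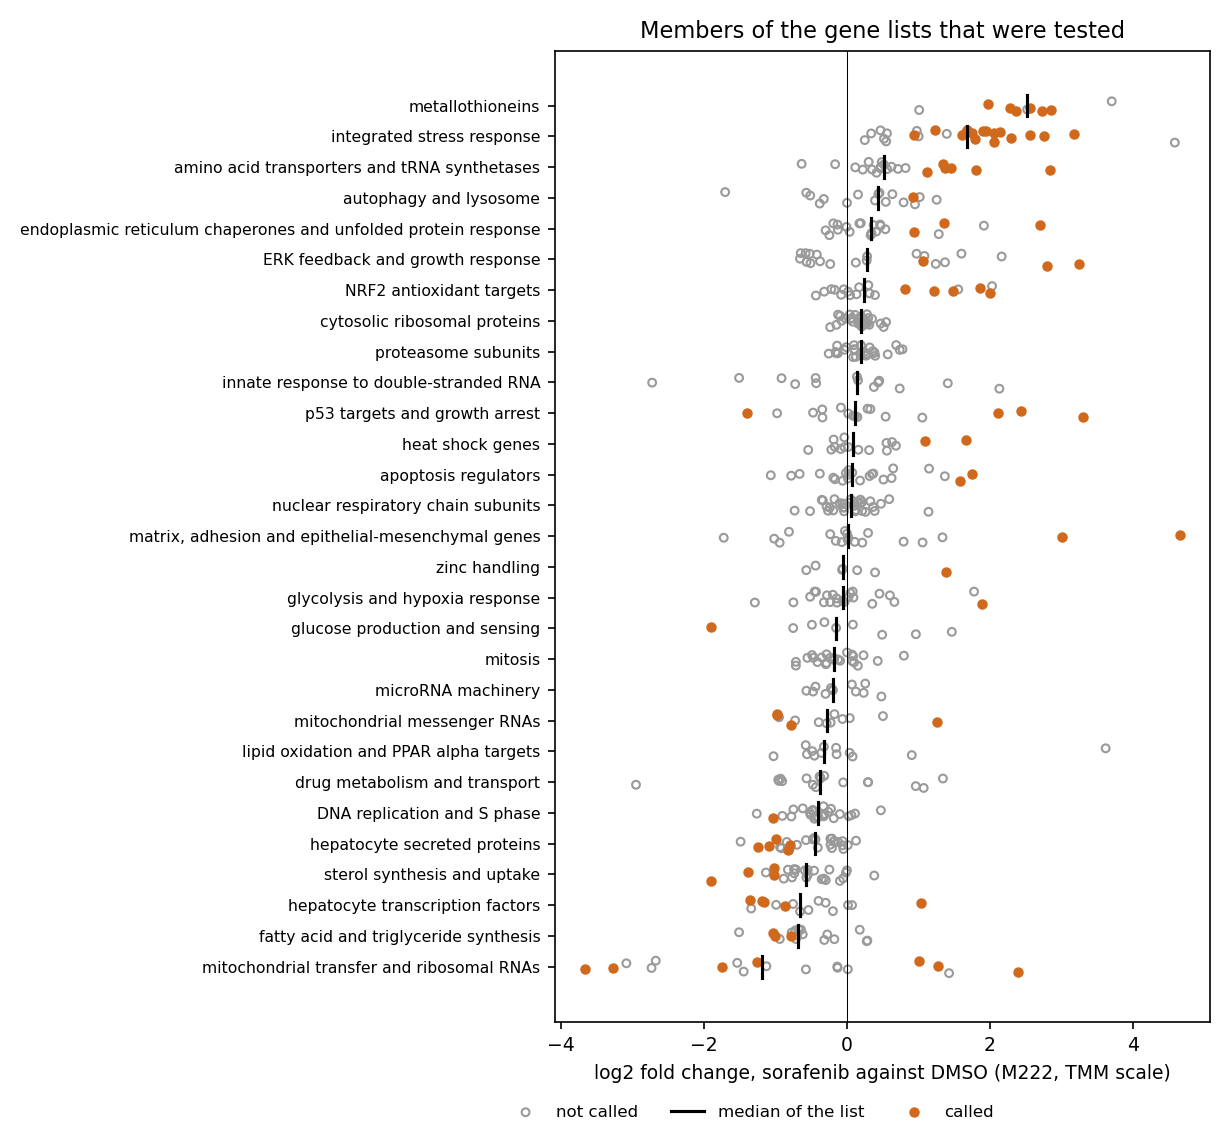
Log2 fold change (sorafenib against DMSO in M222, TMM scale) of each tested member of the gene lists, 1 row a list in order of the median (black bar); orange members were called at an adjusted p under 0.05, grey ones were not. Metallothioneins (median 2.52) and the integrated stress response (1.68) lie at the top, and mitochondrial transfer and ribosomal RNAs (-1.19) and fatty acid synthesis (-0.68) at the bottom.

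Several lists held no called member or 1. No gene was called in mitosis (24 genes), ribosomal proteins (30), proteasome subunits (27), the innate response to double-stranded RNA (14) or the microRNA machinery (12), by edgeR with all libraries. As 4.38% of all genes were called, a count of 0 in lists of this size is near the overall share. At an unadjusted p under 0.05 the numbers in this order were 5, 1, 5, 1 and 1, and DESeq2 called 1, 0, 1, 0 and 1. Of all 13244 genes, 2531 had an unadjusted p under 0.05 in edgeR. With total counts as the scale, edgeR called 1 gene of the microRNA machinery lower. In DNA replication, GINS1, of the helicase complex, fell by 1.03 on the log2 scale (edgeR adjusted p = 0.0268) among 25 genes with a median of -0.40. In glycolysis and hypoxia, ADM, the peptide adrenomedullin, rose by 1.89 on the log2 scale (edgeR adjusted p = 0.00914) among 23 genes with a median of -0.06. The medians of heat shock genes, nuclear respiratory subunits, apoptosis regulators and matrix genes, at 0.09, 0.05, 0.08 and 0.01, became -0.01, -0.05, -0.01 and -0.08 with total counts as the scale.

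Leaving out replicate 2 changed the counts of several lists. Sterol synthesis went from 4 to 3 genes called lower, and mitochondrial transfer and ribosomal RNAs from 3 higher and 4 lower to 2 and 6. Matrix, adhesion and epithelial-mesenchymal genes, 19 tested, went from 2 higher (SNAI1 and CCN1) and none lower to 4 and 2. Higher calls went from 2 to 3 in heat shock genes, from 1 to 3 in glycolysis and hypoxia and from 1 to 2 in autophagy, and lower calls from 1 to 2 in DNA replication and from 0 to 1 in drug metabolism. The counts were equal with and without it for zinc handling, the endoplasmic reticulum, ERK feedback, p53 targets, apoptosis, mitochondrial messenger RNAs, glucose production, hepatocyte transcription factors and, by number though not by gene, fatty acid synthesis. The lists with no called gene, drug metabolism aside, still had none by edgeR.

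By size of change alone, the leading called genes with a mean of at least 10 CPM in 1 group included several outside the lists. RASD1, a small GTPase induced by glucocorticoids, went from 1.68, 1.11 and 0.681 CPM to 22.9, 12.5 and 12 CPM (log2 fold change 3.70, SE 0.77, edgeR adjusted p = 0.00586). SLC44A2, a choline transporter, went from 0.737, 6.23 and 3.06 CPM to 45, 30.3 and 41.7 CPM (log2 fold change 3.65, SE 0.53, edgeR adjusted p = 0.000341). DUSP1, a phosphatase of stress-activated kinases, went from 3.05, 10.9 and 1.7 CPM to 56.8, 35 and 36.3 CPM (log2 fold change 3.10, SE 0.47, edgeR adjusted p = 0.000535). All 3 genes were far above their DMSO levels in each sorafenib library.

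BHLHE40, a clock-linked repressor, rose by 3.26, CCN1, a secreted matrix protein, by 3.01, HBEGF, a ligand of the EGF receptor, by 3.12 and FAM241B by 3.17 on the log2 scale. RNU5B-1, a U5 spliceosomal RNA with close copies in the genome, had 0, 3 and 0 reads in DMSO and 82, 31 and 80 in sorafenib, and no fold is given. An unnamed transcript on chromosome 8, ENSG00000279766, was at 0, 2 and 0.34 CPM in DMSO and at 17.1, 6.69 and 20 CPM in sorafenib.

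Genes with the lowest log2 fold changes were of lower level. Besides MT-TP and MT-TY they included LRG1, a secreted glycoprotein of the acute phase, which went from 35.6, 38.7 and 46.8 CPM to 0.874, 15.8 and 11.8 CPM (log2 fold change -2.12, SE 0.50, edgeR adjusted p = 0.0145). SOX5, a transcription factor, went from 21, 18.9 and 26.7 CPM to 4, 8.03 and 4 CPM (log2 fold change -2.07, SE 0.54, edgeR adjusted p = 0.0257). CCDC142 and ZBTB9 fell by 2.41 and 2.00, and the non-coding MIR1915HG by 2.16 on the log2 scale. Also among them, ENSG00000261685, ENSG00000259891, ENSG00000215447 and the pseudogene ACSL3P1, had log2 fold changes of -2.50, -2.32, -2.03 and -1.92. Together with JUNB, GADD45B and PPP1R15A, these belong to the 24 genes of largest change, 12 in each direction. Without replicate 2, 22 of the 24 were called, and ZBTB9 was not (edgeR adjusted p = 0.0574). With 1 M222 library left out, the number called ranged from 13 (without M222_DMSO replicate 3) to 23 (without M222_sorafenib replicate 2). CCDC142 and SOX5 kept their call in 2 of these 6 fits, and ACSL3P1 and ENSG00000215447 in 1. In edgeR on the 6 M222 libraries alone 19 were called, and LRG1 was not (edgeR adjusted p = 0.0695).

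SNAI1, a repressor of epithelial genes, was the member of the list of matrix and epithelial-mesenchymal genes with the largest rise. It had 2, 4 and 1 reads in DMSO and 119, 29 and 51 in sorafenib, or 0.211, 0.889 and 0.17 CPM against 14.9, 6.47 and 8.5 CPM (log2 fold change 4.66, SE 0.95, edgeR adjusted p = 0.0056). SNAI1 is also among 24 genes that the study named for the miR-222-5p mimic, a list chosen on these same samples, which makes it no independent evidence of direction. Of its 23 tested members, 1 rose (SNAI1) and 3 fell (MT-TF, MT-CO3 and ELOVL6), with a median of -0.75. Without replicate 2, SERPINC1, SOX9 and RB1 were called lower too and ELOVL6 was not. RB1, the retinoblastoma protein, was at 23.1, 12.7 and 11.1 CPM in DMSO and at 2.12, 18.3 and 5.66 CPM in sorafenib, and its edgeR adjusted p went from 0.415 to 0.049. FAS, a death receptor, had overlapping groups (log2 fold change 0.15, edgeR adjusted p = 0.921).

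Sorafenib was also given with the mimic control, and the test of the difference asked whether the miR-222-5p mimic changed the response. In MC, 344 genes (2.60%) were called. Of the 580 genes called in M222, 226 were called in MC too, or 39.0% of the former list and 65.7% of the 344, and all 226 had the same sign. The contrasts share no library. Of the 354 called in M222 but not in MC, 350 had the same sign in MC, and 37 had an unadjusted p under 0.05 for the difference between M222 and MC, where the genes were chosen by their M222 effect. In the test of the difference itself, 0 of 13244 genes (0%) passed with edgeR, 260 had an unadjusted p under 0.05, and DESeq2 called 1. Without replicate 2 of M222, edgeR again called 0, and 620 of 14009 genes had an unadjusted p under 0.05. Both numbers are shares under 0.05, the share that this threshold passes on average where no gene differs. With 3 libraries or fewer per group, a count of 0 does not show that the responses were equal. MC replicate 2, displaced on the axis at 0.165 in DMSO and 0.640 in sorafenib, stayed in these fits and in the MC contrast. For MT2A the log2 fold change was 2.36 in M222 and 2.44 in MC (difference -0.09, SE 0.49). For PPP1R15A it was 3.18 and 2.66 (difference 0.52, SE 0.52), and for DHCR7 -1.02 and -1.08 (difference 0.06, SE 0.36). For MT2A and DHCR7 the difference was smaller than its SE, and for PPP1R15A about equal to it.

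SNAI1 rose by 4.66 on the log2 scale in M222 and had a log2 fold change of 1.59 in MC (difference 3.06, SE 1.23, unadjusted p = 0.02 in the edgeR test over all genes). OSGIN1 had log2 fold changes of 1.87 and 0.58 (difference 1.28, SE 0.53, unadjusted p = 0.0225 in the same edgeR test). MT-TF had log2 fold changes of -1.25 and -0.48 (difference -0.77, SE 0.39, unadjusted p = 0.0609 in the edgeR test over all genes). None of the 3 differences passed the adjustment in edgeR. Genes with the seed site of miR-222-5p were called in the drug contrast at 55 of 1172 (4.69%) and those without it at 470 of 9973 (4.71%), with medians of 0.00 and -0.02.

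**Figure D5:**
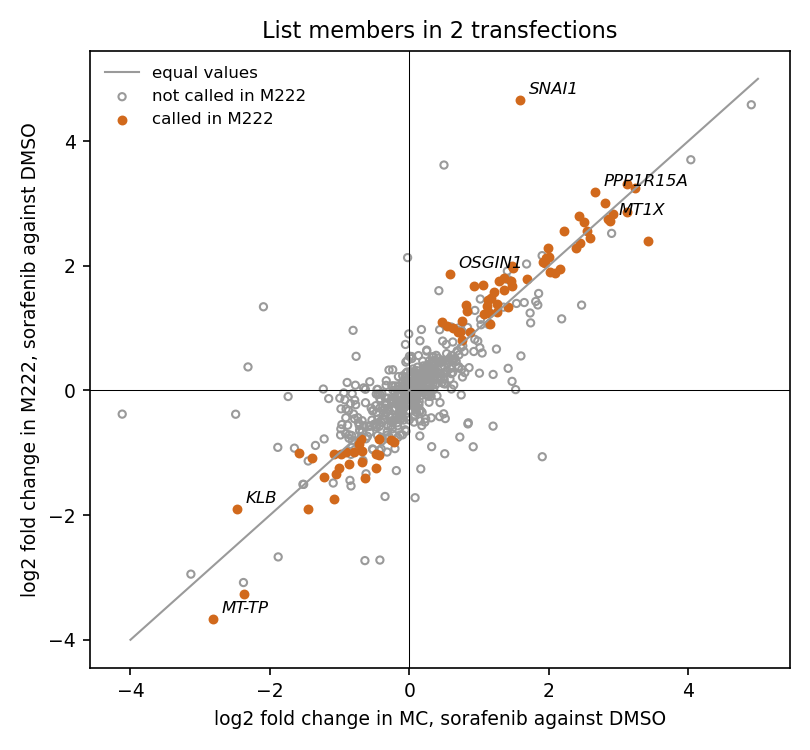
Log2 fold change (sorafenib against DMSO) of the tested list members in MC on the x axis and in M222 on the y axis; orange members were called in M222, and the grey line marks equal values. Most orange points follow the line, with SNAI1 at 1.59 in MC and 4.66 in M222.

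With the miR-512-3p mimic, 1319 genes (9.96%) were called, and 368 of them were also called in M222 with the same sign, which makes 27.9% of the 1319 and 63.4% of the 580. In the test of the difference, 2 genes (0.0151%) passed, SAMD11 and IGFBP1. SAMD11 was at 5.05, 5.78 and 9.7 CPM in M222_DMSO and at 13.5, 12.5 and 20.7 CPM in M222_sorafenib (log2 fold change 1.19), and at 0, 0.299 and 0.139 CPM in M512_DMSO and 11.8, 17.7 and 12 CPM in M512_sorafenib. IGFBP1, a binding protein of insulin-like growth factors made by liver, was at 28.4, 57.6 and 35 CPM in M222_DMSO and at 21.4, 41.7 and 23.3 CPM in M222_sorafenib. In M512 it went from 551, 495 and 546 CPM to 31.3, 40.5 and 63.1 CPM. The 2 genes thus differed between the mimics in their DMSO level more than in their sorafenib level. Neither passed without replicate 2 of M222, where 0 genes were called by edgeR and 899 had an unadjusted p under 0.05.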

How the data were processed

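QuantSeq 3′ FWD libraries of 30 HepG2 cultures were analysed by the authors, who mapped reads to GRCh38 with STAR and used HTSeq-count for read counting; the annotation release, the use of strand and molecular identifiers are not given in the sources used here. The deposited table holds raw counts per Ensembl gene and library, and these counts were used; the normalised table of the authors, scaled apart for each transfection, was not. Of 60199 lines, 92 named no gene, held 3 counts in all and were left out. Symbols and positions came from GENCODE 44 on GRCh38, which matched 56104 of 60107 genes.

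The 18 libraries of 24 h were fitted together in edgeR 4.0.16 (R 4.3.3; quasi-likelihood F test, TMM, default filter on low counts, 1 coefficient per group, two-sided). P-values were adjusted by Benjamini-Hochberg over all genes tested, with a threshold of 0.05. The SE is the log2 fold change divided by the square root of F. The study used DESeq2, which served as an alternative (version 1.42.0). Scripts were tested on simulated counts, which had less spread between libraries than the data and no displaced replicate. That test checked the code and not the error rate in these data. Total counts were 4474859 to 8756018 per M222 library, so that a count of 0 allows 0.343 to 0.67 CPM (3 counts), and such limits cover counting error only. The labels name biological replicates without their source, so p-values measure the spread between these cultures.

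Named genes are the 12 largest and 12 smallest log2 fold changes among called genes with a mean of at least 10 CPM in 1 group and no overlap of the groups, and members of the gene lists. The experiment, the lists and the tests were chosen with earlier results of these data known. Alternatives were DESeq2, its size factors, total counts, no filter, the contrast's own libraries, a replicate block, and leaving out libraries. Some genes that met these rules are not reported here.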

Additional observations from a re-analysis of the deposited data

Results flagged for a closer look

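In 2 genes the effect of sorafenib differed between the miR-222-5p and the miR-512-3p mimic by the interaction test of edgeR over 13244 genes. For SAMD11 the M222 effect minus the M512 effect was -5.28 on the log2 scale (SE 0.84, edgeR adjusted p = 0.0194), with effects of 1.19 in M222 and 6.47 in M512. In M512_DMSO this gene was at 0, 0.299 and 0.139 CPM, so the size of its effect there depends on the prior count of the fit. For IGFBP1 the difference was 3.06 (SE 0.53, edgeR adjusted p = 0.0371), with effects of -0.49 in M222 and -3.55 in M512, and its groups overlapped in M222. Groups of 3 are too small for a test of single outlying libraries.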

How the results depend on the processing

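The count of 580 called genes stayed within 1.5 times under DESeq2 size factors (588), total counts (626), the 6 libraries alone (523), the replicate block (695), and without replicate 2 of both groups (700). It became 1028 with DESeq2, of which 577 were shared with the same sign. On 2 alternatives chosen after seeing the data it was 1074 with DESeq2 on the 6 libraries alone and 444 with 2 against 2 libraries and no other group in the fit. Without the filter on low counts, 861 genes were called. Leaving out 1 M222 library in turn gave 204 to 734 genes. For the difference from MC, 0 genes became 1 with DESeq2 and 2 without the filter, and 0 remained the count when any 1 library was left out. For the difference from M512, 2 genes became 14 with DESeq2, 38 without the filter, 4 with the 12 libraries alone and 5 with the replicate block, 3 with total counts, and 0 without replicate 2 of both M222 groups. Leaving out 1 library gave 0 to 2, with 0 without M222_DMSO replicate 3, M512_DMSO replicate 1 or 3, or M512_sorafenib replicate 2, and 1 without M222_DMSO replicate 1, M512_DMSO replicate 2 or M512_sorafenib replicate 1. Replicate numbers were not taken as pairs: deviations of same-numbered libraries from their group means correlated at 0.128, 0.0900 and 0.0985 across genes, not over 0.1 in all, although every library correlated best with its own number. The replicate block kept 533 of the 580 calls. None of 123 genes, those named by size and list members called with or without replicate 2, changed sign under these alternatives. With 1 M222 library left out at a time, 554 of their values stayed on their side of the threshold, 160 lost and 24 gained the call. The cause of these moves was not tested. At these depths a gene at 0 counts is limited to 0.67 CPM.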
